A study of Rattus norvegicus with 6 samples.

Results

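The synaptic vesicle and transmitter identity genes were examined in RNA from cultures of newborn Sprague-Dawley rats whose label is spinal cord neurons. They were chosen by gene symbol and fall into a vesicle and fusion group (SYT1, SNAP25, SYP and VAMP2), an excitatory gene (SLC17A6), an inhibitory group (SLC32A1, GAD1 and GAD2) and a cholinergic gene (CHAT). Of these 9 genes, 8 were found among the 17648 rows of the expression matrix, and SNAP25 was not analysed here. The 6 libraries comprised 3 labelled Glu + siR-Con, which had received a control siRNA (small interfering RNA), and 3 labelled Glu + siR-GAL3, which had received one against galectin-3 (GAL3, listed as LGALS3). The question was how silencing of GAL3 in glutamate-injured neurons changed their transcripts. The cultures were kept for 3 days with Ara-C to limit dividing cells. The injury model was 10 μM glutamate for 1 h followed by 16 h without it. The design text and the methods give glutamate to both groups, whereas the sample labels give saline to the control libraries and call the siR-GAL3 cultures a knockout, so a difference in glutamate cannot be told apart from the siRNA if the sample labels are right. One siRNA against GAL3 was used, and the sources used here do not say whether the replicates came from separate cultures, so the spread between libraries may be technical.

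A chemical synapse releases transmitter from vesicles. VAMP2 on the vesicle and SNAP25 with syntaxin on the plasma membrane zip together as the SNARE complex, synaptotagmin-1 (SYT1) senses the calcium that triggers fusion, and synaptophysin (SYP) is an abundant membrane protein of the vesicle. What a vesicle holds depends on its transporter and on the enzymes of the cell. VGLUT2, made from SLC17A6, loads glutamate and marks most excitatory neurons of the spinal cord. VIAAT, made from SLC32A1, loads GABA and glycine, and GAD1 and GAD2 make GABA from glutamate. Choline acetyltransferase (CHAT) makes acetylcholine and marks motor neurons and some interneurons.

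The values are expression values on a linear scale, which the authors derived from FPKM (fragment counts scaled by transcript length and library size) and then corrected. They are per transcript length, so levels of different genes can be set side by side, but 3.86% of all values are below 0 and the zero of the scale may therefore be displaced. All values of the 8 genes were above 0. Totals per library ranged from 64313 to 64714, and the sequencing depth is unknown. Exactly equal values joined the libraries into sets, with between 1312 and 1463 shared values within a set and between 238 and 264 across sets. One library of each group, replicate 1, formed the first set. Control replicates 2 and 3 formed the second together with siR-GAL3 replicate 3. The remaining library, siR-GAL3 replicate 2, belonged to neither set and lay apart on the first principal component, which held 65.2% of the variance. Library values are given in the order of replicates 1, 2 and 3. LGALS3 was 77.4, 54.4 and 62.4 in siR-Con and -1.64, 32.3 and 18.5 in siR-GAL3, lower in all siR-GAL3 libraries than in any control.

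The levels of neuronal genes were low for cultures labelled as neurons. RBFOX3, which encodes the neuronal nuclear protein NeuN, lay between 0.300 and 0.429 over the 6 libraries, and NEFH, the heavy neurofilament chain, lay between 0.00813 and 0.0210. The 12 neuronal markers had a median level of 0.519, and 5 of them had a mean of at least 1. MAP2, a dendritic microtubule protein, was the most abundant of them and lay between 13.1 and 18.99. Glial markers were far higher. GFAP, the astrocyte filament protein, lay between 514.8 and 757.7, and MBP, a myelin protein, between 628.6 and 918.5. The median level was 31.3 over 9 astrocyte markers and 61.9 over 8 oligodendrocyte markers. The label is therefore carried here as the name of the cultures and not as a measure of their makeup. In these bulk libraries, fewer cells of a type and less RNA per cell cannot be told apart.

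**Figure D1:**
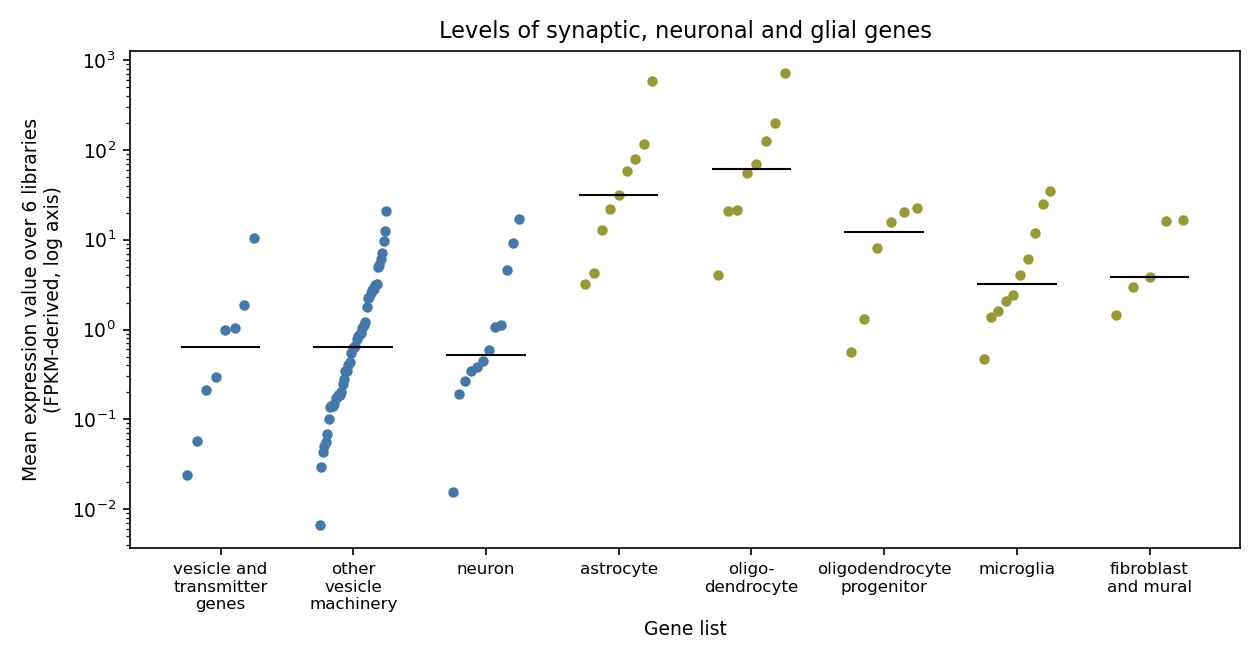
Mean expression value over the 6 libraries (FPKM-derived, log axis) of each gene of 8 lists, with 1 point per gene and a black line at the median of the list. The synaptic and neuronal lists have medians of 0.641, 0.632 and 0.519, below the medians of 31.3 for astrocyte, 61.9 for oligodendrocyte and 3.25 for microglia markers.

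Among the 8 genes the order of the levels was VAMP2, SYT1, SYP, GAD1, GAD2, SLC32A1, SLC17A6 and CHAT. VAMP2 had a mean of 10.6 over the 6 libraries and stood between the 93.0th and the 94.8th percentile of all rows, and CHAT, the lowest, had a mean of 0.0241 and stood between the 15.6th and the 19.5th percentile. The median level over all rows was 0.909. Neighbours in this order did not overlap over the 6 libraries, with 2 exceptions. SYP lay above GAD1 in 4 of the 6 libraries only, and the ranges of GAD2 and SLC32A1 overlapped although GAD2 was the higher in each of the 6 libraries. These steps are a description of levels. Of the 8 genes, 3 had a mean of at least 1, the filter set for limma, and GAD1 missed it at 0.988, so the fold changes of GAD1, GAD2, SLC32A1, SLC17A6 and CHAT were taken from a fit of all rows.

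The sequence around the start of transcription was looked up for these genes. The RefSeq table for GRCr8 held windows of 250 bases before and 50 bases after the start for 8 of the 9 genes, of which 3 are shown. GAD1 and GAD2 are printed because of these enzymes of the same step only GAD1 was separated between the groups, and VAMP2 because it was the most abundant. Capitals mark the GC box (GGGCGG) and the TATA box (TATAAA), both searched on both strands, so that a GC box of the other strand reads CCGCCC.
GAD1, chr3:75777202-75777501, plus strand: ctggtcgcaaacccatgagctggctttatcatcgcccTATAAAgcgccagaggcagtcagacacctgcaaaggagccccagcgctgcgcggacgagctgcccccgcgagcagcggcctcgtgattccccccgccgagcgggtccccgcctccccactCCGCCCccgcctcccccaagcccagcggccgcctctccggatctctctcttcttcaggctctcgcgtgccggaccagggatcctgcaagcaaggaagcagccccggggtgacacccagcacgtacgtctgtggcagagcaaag
GAD2, chr17:89671468-89671767, plus strand: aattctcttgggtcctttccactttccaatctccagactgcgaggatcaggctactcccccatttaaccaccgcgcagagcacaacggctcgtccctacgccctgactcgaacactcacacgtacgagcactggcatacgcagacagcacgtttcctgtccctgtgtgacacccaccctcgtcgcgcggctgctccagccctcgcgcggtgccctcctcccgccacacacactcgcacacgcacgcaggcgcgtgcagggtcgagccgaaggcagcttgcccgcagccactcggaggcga
VAMP2, chr10:54292539-54292838, plus strand: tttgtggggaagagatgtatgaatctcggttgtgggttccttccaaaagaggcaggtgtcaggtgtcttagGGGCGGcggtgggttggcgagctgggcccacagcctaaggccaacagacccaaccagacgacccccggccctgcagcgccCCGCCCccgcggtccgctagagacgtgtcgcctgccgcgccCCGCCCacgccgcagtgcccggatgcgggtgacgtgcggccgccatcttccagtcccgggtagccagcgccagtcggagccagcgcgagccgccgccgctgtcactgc
VAMP2 held 3 GC boxes and GAD1 held 1, while the GAD2 window held neither motif. Of the 8 windows, 5 held a GC box, against 33.1% of all 33469 windows, and 1 held a TATA box, against 14.2%. This TATAAA match, in GAD1, began at base -213 from the start of transcription, and whether it works as a TATA box was not tested. The GC content was between 49.0% (SLC17A6) and 73.7% (SLC32A1), against a median of 51.7% over all windows. SLC32A1 held 42 CpG dinucleotides, GAD2 held 29 and GAD1 held 26, against a median of 7. The core TGACG of the cyclic AMP response element was found in 4 of the 8 windows (21.2% of all windows), and the E-box CAGCTG also in 4 (15.1% of all windows), both also searched on both strands. The build the authors used is not given in the sources used here, and these matches do not show that a factor binds.

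All 8 genes had a higher mean in siR-GAL3 than in the controls, and 51% of all rows had a log2 fold change above 0. None passed the limma test after Benjamini-Hochberg adjustment, and neither did any other of the 17648 rows, although 9.2% had an unadjusted p under 0.05. None met the study's criteria (an absolute log2 fold change above 1 with an unadjusted p under 0.05). Of the 8495 genes whose mean reached 1, 0.318% met them, and of all 17648 rows 0.204% did. In 3 of the 8, GAD1, SYT1 and SYP, every siR-GAL3 library lay above every siR-Con library, and of all rows 9.01% were separated in this direction and 7.86% in the other. Of the 3 whose mean reached 1, SYT1 and SYP were separated, against 10.3% of all genes past that filter. Without siR-GAL3 replicate 2 the number was again 3 of 8, and that of all rows was 13.5%. Neither set of libraries gave a higher value in siR-GAL3 for every gene. Within the first set 7 of 8 were higher in siR-GAL3, and within the second set 5 of 8 were. In the second set SLC17A6, SLC32A1 and GAD2 were lower.

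**Figure D2:**
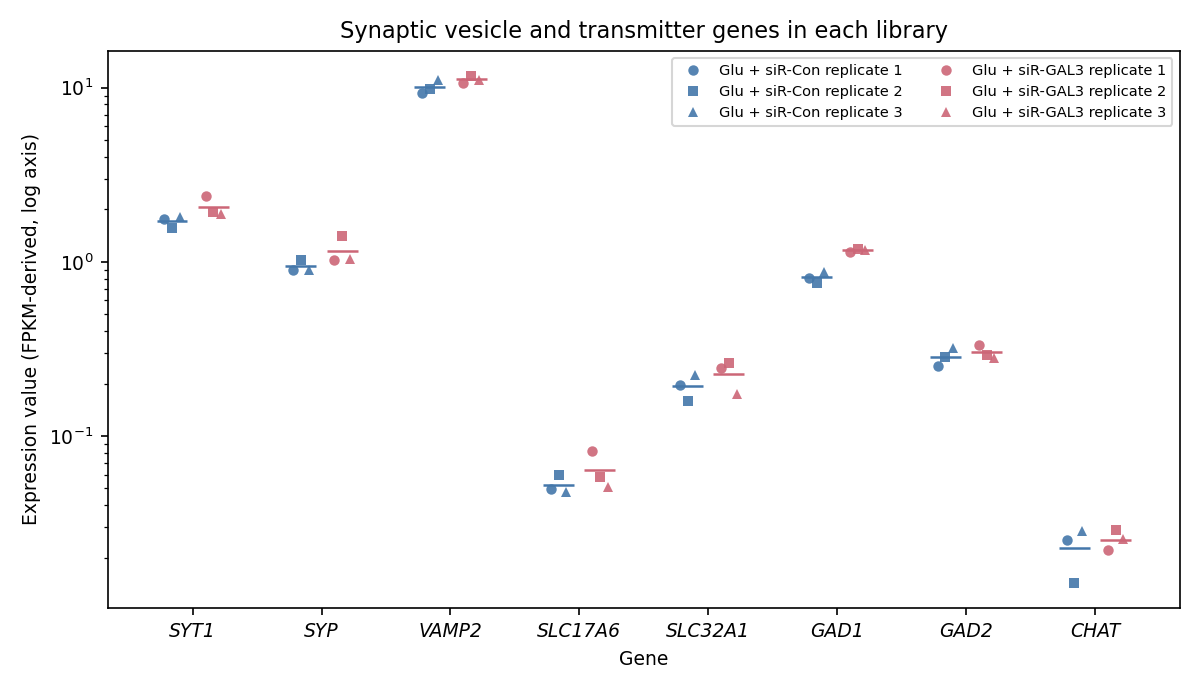
Expression value (FPKM-derived, log axis) of each of the 8 genes in each library, with 1 point per library and a line at the mean of each group of 3. The groups are apart for GAD1, SYT1 and SYP, with siR-GAL3 higher, and overlap for the other genes.

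Of the inhibitory genes, GAD1, the larger of the GABA-synthesizing enzymes, stood out. It was 0.806, 0.754 and 0.878 in siR-Con and 1.14, 1.19 and 1.17 in siR-GAL3. The siR-GAL3 values lay close together and all were above the highest control. The control mean was 0.813 ± 0.0620 and the siR-GAL3 mean 1.16 ± 0.0252 (SD, n = 3 each), a difference of 0.350 units. In limma over all 17648 rows, the log2 fold change on log2(value + 1) was 0.26 with a standard error of 0.050 (Benjamini-Hochberg adjusted p = 0.311, unadjusted p = 0.00285). It was the only one of the 8 genes with an unadjusted p under 0.05, a level that 5.03% of all rows reached in this direction. On this scale the change of low genes is understated, and with a pseudocount of 0.1 the log2 fold change of GAD1 was 0.47. The exact permutation test gave a two-sided p of 0.1, the smallest that 3 against 3 allow. GAD1 was higher in siR-GAL3 within both sets, by 0.330 units in the first and 0.350 in the second. With each library left out in turn its log2 fold change stayed between 0.23 and 0.28.

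GAD2, the other GABA-synthesizing enzyme, did not separate the groups. Its values were 0.252, 0.284 and 0.319 in siR-Con and 0.335, 0.293 and 0.282 in siR-GAL3. The siR-GAL3 replicates 2 and 3 lay inside the range of the controls, and replicate 1 lay above it. The log2 fold change was 0.021 (95% confidence interval -0.049 to 0.090 in limma). SLC32A1, the vesicular transporter of GABA and glycine, was 0.197, 0.159 and 0.224 in siR-Con and 0.247, 0.262 and 0.174 in siR-GAL3. The groups overlapped because siR-GAL3 replicate 3 lay below 2 of the controls. Its log2 fold change was 0.041 (95% confidence interval -0.046 to 0.13 in limma). For genes this low the scale shrinks the change and its interval. The means of GAD2 and SLC32A1 were 6.48% and 17.8% higher in siR-GAL3. With a pseudocount of 0.1 their log2 fold changes were 0.069 and 0.16.

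Of the vesicle and fusion genes, SYT1 was 1.75, 1.56 and 1.82 in siR-Con and 2.39, 1.94 and 1.88 in siR-GAL3. The groups did not overlap, but siR-GAL3 replicate 3 was only just above the highest control. In limma over the 8495 genes past the filter, the log2 fold change of SYT1 was 0.18 with a standard error of 0.085 (Benjamini-Hochberg adjusted p = 0.585, unadjusted p = 0.0743). It was 0.10 without siR-GAL3 replicate 1, the highest library, and 0.21 without siR-GAL3 replicate 2 (limma, unadjusted p = 0.0307, adjusted p = 0.255). SYP was 0.896, 1.02 and 0.901 in siR-Con and 1.03, 1.41 and 1.03 in siR-GAL3. The separation was slight for 2 of the 3 siR-GAL3 libraries, and siR-GAL3 replicate 2 was the high one. The log2 fold change of SYP was 0.15 (standard error 0.083, adjusted p = 0.590 in limma) and was 0.066 without siR-GAL3 replicate 2. The exact permutation p of SYT1 and of SYP was 0.1.

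VAMP2 was 9.32, 9.76 and 11.1 in siR-Con and 10.7, 11.6 and 11.1 in siR-GAL3. The groups overlapped, and siR-Con replicate 3 and siR-GAL3 replicate 3 were listed at exactly the same value. The means were 10.1 ± 0.909 and 11.1 ± 0.481 (SD, n = 3 each), with a log2 fold change of 0.14 (95% confidence interval -0.056 to 0.33 in limma). Without siR-Con replicate 1 it was 0.089.

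The excitatory and the cholinergic gene were near the floor of the matrix. SLC17A6 was 0.0494, 0.0601 and 0.0474 in siR-Con and 0.0818, 0.0583 and 0.0508 in siR-GAL3. Only siR-GAL3 replicate 1 lay above the controls, and the log2 fold change of SLC17A6 was 0.015 (95% confidence interval -0.016 to 0.046 in limma). It was 0.0031 without siR-GAL3 replicate 1. CHAT was 0.0254, 0.0144 and 0.0283 in siR-Con and 0.0220, 0.0287 and 0.0255 in siR-GAL3. The groups overlapped, and the log2 fold change of CHAT was 0.0038 (95% confidence interval -0.013 to 0.020 in limma). Its direction turned without siR-Con replicate 2, the lowest library. On log2(value + 1) both the change and the interval of genes this low are shrunk. The mean of SLC17A6 was 21.7% higher in siR-GAL3 and that of CHAT 11.9% higher. With a pseudocount of 0.1 their log2 fold changes were 0.10 and 0.033. Differences in these genes could not be told from the spread at these levels.

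**Figure D3:**
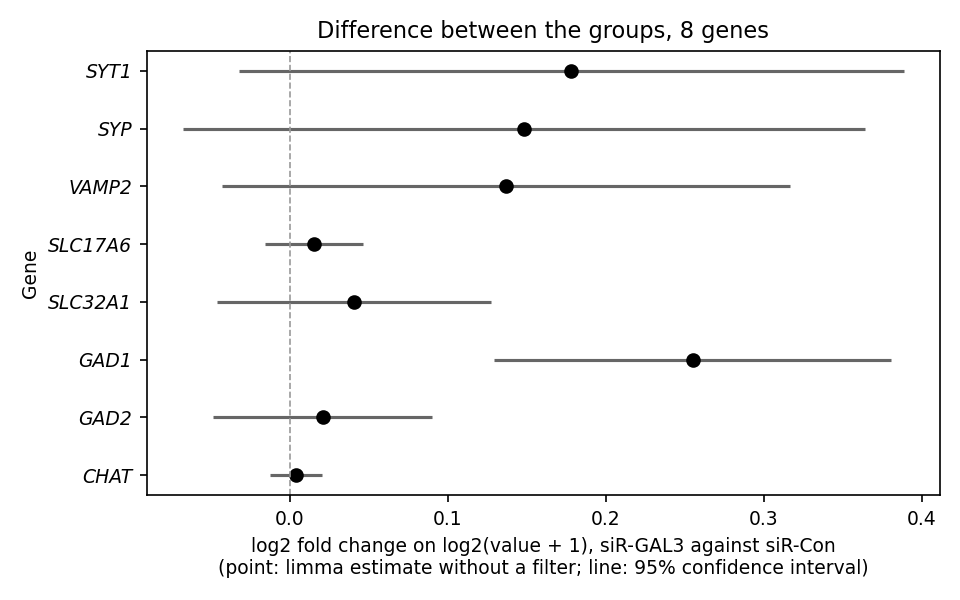
Log2 fold change of each of the 8 genes on log2(value + 1), Glu + siR-GAL3 against Glu + siR-Con, from limma without a filter, with 95% confidence intervals as lines. The interval of GAD1, from 0.13 to 0.38, is the only one that does not reach 0, before adjustment over all genes. This scale shrinks the change and the interval of low genes, so they cannot be compared between genes of different level.

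A log2 ratio of the values of 2 genes within a library does not depend on how that library was scaled. A difference on log2(value + 1) does depend on it where values are well under 1, as for SLC17A6, SLC32A1, GAD2 and CHAT. Of the 6 ratios planned, 5 could be formed, and adjusted p-values cover these 5. The log2 difference of GAD1 and GAD2 on log2(value + 1) was 0.53, 0.45 and 0.51 in siR-Con and 0.68, 0.76 and 0.76 in siR-GAL3. Every siR-GAL3 library was above every control, with a difference of 0.23 between the groups (exact permutation test, two-sided p = 0.1, Benjamini-Hochberg adjusted p = 0.25). The log2 ratio of the values themselves, without a pseudocount, gave the same separation, from 1.41 to 1.68 in siR-Con and from 1.76 to 2.05 in siR-GAL3. SLC17A6 against the mean of GAD1 and GAD2 was also separated on log2(value + 1), at -0.54 ± 0.045 in siR-Con and -0.66 ± 0.014 in siR-GAL3 (SD, n = 3 each, exact permutation p = 0.1). The difference was -0.12 and lay between -0.15 and -0.11 with each library left out in turn. Without a pseudocount, a scale added after seeing the data, the groups overlapped, with means of -3.21 and -3.25 (exact permutation p = 0.9).

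SLC17A6 lay below SLC32A1 in each library, and their log2 ratio without a pseudocount was between -2.24 and -1.40 in siR-Con and between -2.17 and -1.59 in siR-GAL3. The ranges overlapped, as did those of CHAT against SLC17A6 and of SYT1 against SYP. For these 3 pairs the exact permutation p on log2(value + 1) was 0.6, 0.5 and 1. With 3 libraries a group the test cannot reach a p under 0.1, so these values do not show that the balance of excitatory, inhibitory and cholinergic markers was alike in the groups.

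**Figure D4:**
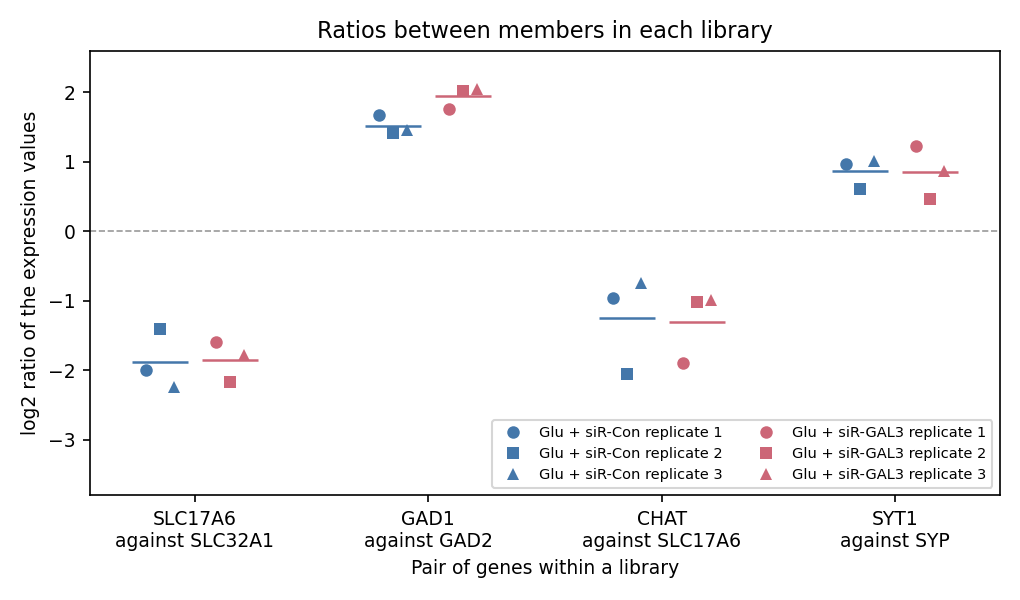
Log2 ratio of the expression values of 4 pairs of genes within each library, with 1 point per library and a line at the mean of each group of 3. For GAD1 against GAD2 the siR-GAL3 libraries, from 1.76 to 2.05, lie above the siR-Con libraries, from 1.41 to 1.68, and the other pairs overlap.

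The genes were also set beside an index of neuronal markers, the mean log2(value + 1) of the 5 of 12 markers with a mean of at least 1 (MAP2, ELAVL3, TUBB3, INA and STMN2). The index was 2.40, 2.31 and 2.46 in siR-Con and 2.43, 2.39 and 2.50 in siR-GAL3, with overlapping groups. Relative to it, GAD1 was -1.53 ± 0.027 in siR-Con and -1.33 ± 0.062 in siR-GAL3 (SD, n = 3 each), without overlap (exact permutation test, two-sided p = 0.1, Benjamini-Hochberg adjusted p over the 8 genes = 0.8). The other 7 genes overlapped between the groups on this scale, SYT1 and SYP among them. The median of these markers was TUBB3 in every library, so as an index it stands for TUBB3 alone. With it, SYT1 and VAMP2 were separated as well, with differences of 0.30 and 0.26. That of GAD1 was 0.37 (exact permutation p = 0.1 for each of these genes). Within the neuronal markers, STMN2, a growth cone protein, had a log2 fold change of 0.33 (unadjusted p = 0.00597, Benjamini-Hochberg adjusted p = 0.324 in limma). It was named after its values were seen. The other markers of the index had log2 fold changes of -0.12 (TUBB3), -0.092 (MAP2), 0.042 (ELAVL3) and 0.086 (INA), so STMN2 raised the mean index most.

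Other genes of vesicle release and recycling were more often lower than higher when all libraries were used. Of 48 such genes, 18 had a mean of at least 1, of which 5 were higher and 13 lower in siR-GAL3. Their median log2 fold change was -0.030, and of all 8495 genes tested 50% were higher. This count rests on siR-GAL3 replicate 2, since without it 12 were higher and 6 lower, with a median of 0.030. Of all 8495 genes 48.9% were higher without it. In the fit of all rows 15 of the 48 were higher and 33 lower, and 23 and 25 without that library. Of all rows 51% were higher, and 47.6% without that library. Of the 48, 4 had an unadjusted p under 0.05 in that fit, all lower (SH3GL2, AMPH, RIMS1 and SV2C), against 4.17% of all rows. Without siR-GAL3 replicate 2 there were 2 higher and 5 lower. Of all 17648 rows, 2355 then had an unadjusted p under 0.05 in limma, 1078 of them higher. SH3GL2 (endophilin A1), which helps to take vesicles back from the membrane, was the only one with an unadjusted p under 0.05 among the 18, which 4.25% of all genes tested reached in the lower direction and 8.66% in either. Without siR-GAL3 replicate 2, 2 of the 18 reached it in the higher direction and 1 in the lower. Of the 8495 genes 1388 then did, 593 of them higher. SH3GL2 was 5.54, 5.85 and 5.83 in siR-Con and 5.31, 4.72 and 4.47 in siR-GAL3. All siR-GAL3 values lay below the lowest control. Its log2 fold change was -0.21 with a standard error of 0.076 in limma (Benjamini-Hochberg adjusted p = 0.523, unadjusted p = 0.0273).

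CPLX2, a complexin that binds the SNARE complex, had a log2 fold change of -0.29 and DNM1, the dynamin that cuts vesicles free, one of -0.18, with adjusted p-values of 0.585 and 0.587 in limma. In both genes siR-GAL3 replicate 2 was the lowest library, at 1.35 for CPLX2 and 0.865 for DNM1. The most abundant gene of the list was SYT11, a synaptotagmin that does not bind calcium. It lay between 21.9 and 22.8 in siR-Con and was 21.0, 15.1 and 21.8 in siR-GAL3.

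The wider transmitter lists were mostly near the floor. Of 10 other cholinergic and motor neuron genes none had a mean of at least 1, and 8 had a mean under 0.1, among them SLC18A3 (the vesicular acetylcholine transporter), ISL1 and MNX1. Of 8 other glutamatergic genes 6 had a mean under 0.1, and so had 6 of 10 other GABA and glycine genes. Of 9 monoamine genes none had a mean of at least 1. Of 18 neuropeptide genes measured 2 did, SCG2 and PENK, with log2 fold changes of 0.15 and -0.18 (adjusted p of 0.580 and 0.653 in limma). In the fit of all rows 3 of the 18 neuropeptide genes, of low level, had an unadjusted p under 0.05 without overlap between the groups. Of all rows 9.2% had such a p, and 9.01% were separated with siR-GAL3 higher and 7.86% with it lower. SST (somatostatin) was higher in siR-GAL3, from 0.279 to 0.442 against -0.034 to 0.171 in siR-Con, with a log2 fold change of 0.35 (limma adjusted p = 0.316). PDYN (prodynorphin) was lower, from 0.105 to 0.112 against 0.164 to 0.191, with a log2 fold change of -0.088 (limma adjusted p = 0.231). NMU (neuromedin U) was lower, with a log2 fold change of -0.044 (limma adjusted p = 0.510). At these levels the log2(value + 1) scale understates a change, so these sizes cannot be set beside those of abundant genes. ACHE (acetylcholinesterase) and SLC18A2 (the vesicular monoamine transporter) were the most abundant of their lists, with means of 0.204 and 0.526 in siR-Con and of 0.256 and 0.682 in siR-GAL3. SLC18A2 was higher in siR-GAL3 replicate 2 alone, at 1.01, and without that library its log2 fold change was -0.0071.

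ABAT, which breaks GABA down, was 6.85 ± 0.620 in siR-Con and 5.82 ± 1.59 in siR-GAL3 (SD, n = 3 each), with overlap. Its log2 fold change was -0.23 (adjusted p = 0.624 in limma), and siR-GAL3 replicate 2 was its lowest library, at 4.22. SLC6A5, the glycine transporter of glycinergic neurons, had values no higher than 0.0341.

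Markers of other cells differed between the same groups. Of 9 microglia markers with a mean of at least 1, all 9 were higher in siR-GAL3 (4 of them with an unadjusted p under 0.05, against 4.41% of all genes tested), and the summed level of the 10 markers was 72.6 to 88.4 in siR-Con and 89.1 to 107.9 in siR-GAL3. Of 9 astrocyte markers 7 were lower (4 with an unadjusted p under 0.05, against 4.25% of all genes tested), with a summed level of 932.6 to 1072 against 805.7 to 870.03. Of 5 fibroblast and mural markers 4 were lower, and their summed level was 43.0 to 50.6 against 33.0 to 38.1. The 8 oligodendrocyte markers summed to 1113 to 1179 in siR-Con and to 1126 to 1466 in siR-GAL3, and the 6 progenitor markers to 69.8 to 78.3 and to 34.0 to 84.4. GPR17, the most abundant progenitor marker, was listed at -7.25 in siR-GAL3 replicate 2 and between 25.7 and 31.03 elsewhere. Schwann cell markers summed to 26.3 to 28.1 and to 23.6 to 26.5, endothelial markers to 1.06 to 1.24 and to 1.10 to 1.18, and markers of dividing cells to 12.8 to 16.01 and to 10.5 to 14.9. No marker of these lists was at 0 in every library. The part of these differences in the values of GAD1, SYT1, SYP and SH3GL2 was not tested.

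For SYT1, SYP and VAMP2, the genes with the most similar pattern were sought by Pearson's correlation of log2(value + 1) over the 6 libraries, among about 2600 genes with a mean of at least 5. For SYT1 these were DBNL and KHDRBS1 (r = 0.985 and 0.944), for SYP TMEM50A and PAIP2 (r = 1.000 and 0.997), and for VAMP2 EIF3J and LOC100360316 (r = 0.984 and 0.970). With 6 libraries and this many genes, high values are found for many patterns, and the libraries share the authors' correction. Among the 8 genes themselves, r was highest for VAMP2 and GAD1 (0.789) and lowest for SLC17A6 and CHAT (-0.399), as a description over 6 libraries.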

How the data were processed

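RNA of 6 libraries was sequenced, 3 per group. According to the paper and its supplement, the authors aligned reads with STAR, counted them with HTSeq, computed FPKM, and then applied batch removal, standardization and a correction of differences inside each group. The deposited values are therefore expression values derived from FPKM by the authors, with one column per library. The correction within groups can shrink the spread between replicates. The genome build is not given in the sources used here. The labels state ribosomal depletion and the supplement poly-A selection.

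The planned unit was FPKM. Negative values were raised to 0 and put on the log2(value + 1) scale. Genes whose mean reached 1 were fitted by limma 3.58.1 with an intensity trend in R 4.3.3, with Benjamini-Hochberg adjustment over all genes. Genes with a lower mean were taken from the same fit on all 17648 rows. The fit was tested on simulated data. Exact permutation tests were run in Python 3.11.15 with NumPy 2.4.6. The members, lists and tests were chosen with earlier results of these data known. The genes named are the 8 members, up to 3 genes of each list with the smallest p among those with a mean of at least 1, the most abundant gene of each list, and for each member with a mean of at least 1 the 2 most similar genes. Not every gene the rule selects is reported here. RBFOX3, NEFH, AMPH, RIMS1, SV2C, SST, PDYN, NMU, SLC18A3, ISL1, MNX1, SLC6A5 and STMN2 were named in addition, after their values were seen. Alternatives were a pseudocount of 0.1, quantile normalization, no filter or a mean of at least 10, a fit without intensity trend, median-ratio scaling, genes with a value below 0 left out, no log transformation, the replicate number or the library set as a block, each library left out, and, for the index, the median of the markers. Ratios without a pseudocount were added after seeing the data.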

Additional observations from a re-analysis of the deposited data

How the results depend on the processing

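In limma, no gene of 8495 had an adjusted p under 0.05, and 736 had an unadjusted p under 0.05. None of the 8 genes examined reached an adjusted p under 0.05 under any alternative (with a mean of at least 10, VAMP2 alone was tested), and with the exception of CHAT their log2 fold changes stayed above 0. The depth is unknown, so no counting error can be given for values as low as those of SLC17A6 and CHAT. With the replicate number as a block 6 genes had an adjusted p under 0.05, and with a block for the library sets 106, where 1174 had an unadjusted p under 0.05. Across the groups, libraries with the same number are not shown to be pairs. Deviations from the group means of libraries with the same number correlated at -0.17, -0.070 and 0.044, and the block changed no call among the 8 genes (adjusted p of GAD1 = 0.690 in limma). The library set block leaves out siR-GAL3 replicate 2, which belongs to neither set. Without a filter 1623 genes had an unadjusted p under 0.05, and with a mean of at least 10, where fewer genes are tested, 121 did. By the study criteria 27 genes passed, 15 with genes holding a value below 0 left out and 5 with a mean of at least 10. Without log transformation the limit of 1 is a difference of 1 expression unit and not a fold change, and 401 genes passed it. With each library left out in turn, between 0 and 167 genes had an adjusted p under 0.05, the most without siR-GAL3 replicate 2, between 344 (without siR-Con replicate 3) and 1388 (without siR-GAL3 replicate 2) an unadjusted one, and between 22 and 29 passed the study criteria.

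The median log2 fold change of SYT1, SYP and VAMP2 was 0.15, with a pseudocount of 0.1 it was 0.26 and without log transformation 0.36 units. CHAT, with each library left out in turn, had a log2 fold change that lay between -0.0020 and 0.0078. The difference between groups in SLC17A6 against SLC32A1 was -0.025, lay between -0.048 and 0.0011 with each library left out and was 0.034 without a pseudocount. That of CHAT against SLC17A6 lay between -0.023 and 0.0031. That of SYT1 against SYP was 0.030, lay between -0.086 and 0.14, was -0.0027 with a pseudocount of 0.1 and -0.013 without one. Relative to the neuronal index, the differences with each library left out lay between -0.0081 and 0.17 for SYP, -0.070 and 0.0098 for SLC17A6, -0.054 and 0.054 for SLC32A1 and -0.054 and 0.014 for GAD2. With the median of the markers as the index, the differences of SLC17A6, SLC32A1, GAD2 and CHAT turned from below 0 to 0.13, 0.16, 0.14 and 0.12. Those of SYT1, SYP, VAMP2 and GAD1 went from 0.13, 0.098, 0.087 and 0.21 to 0.30, 0.27, 0.26 and 0.37. That median was TUBB3 in every library, and all these differences rose by the same amount because only the index was changed. Without a pseudocount those of SLC17A6, SLC32A1 and CHAT were 0.14, 0.10 and 0.088, and with a pseudocount of 0.1 that of SLC32A1 was 0.045. The cause of the turns without a pseudocount or with a pseudocount of 0.1 was not tested.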
